A study of Mus musculus with 8 samples.

Results

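Elane, Prtn3, Ctsg and Mpo encode neutrophil elastase, proteinase 3, cathepsin G and myeloperoxidase, the defining cargo of the primary (azurophilic) granules of neutrophils. They were taken by gene symbol and make up 4 of the 12294 genes measured. The 8 libraries came from leukemic progenitors that the labels call I1DN, a name they do not expand, sorted as cKit+/CD11b- cells from mice that had received an I1DN transplant. All groups share that leukemia and that gate, and differ in the drug given over 5 days: Vehicle, AG120, AZA, or the combination AG120_AZA, with 2 libraries in each of the 4 groups. AG120 (ivosidenib) inhibits mutant IDH1, and AZA (azacitidine) is a cytidine analogue that inhibits DNA methyltransferases. The series asks what the combined treatment does to gene expression. The genotype, strain and age of the mice are not given in the sources used here. Cells were sorted mouse by mouse, but the labels leave unsaid whether the 2 libraries of a group come from different mice. The p-values therefore measure only the spread between libraries, which may be technical.

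Primary granules are made early in granulopoiesis, at the promyelocyte stage, and their cargo genes are transcribed mainly in immature myeloid cells. Elane, Prtn3 and Ctsg encode related serine proteases that are activated by removal of a short propeptide and stored bound to proteoglycan, whereas Mpo encodes a heme peroxidase that makes hypochlorous acid. In mature neutrophils the proteins remain in the granules while the messages have fallen away. In leukemic progenitors these messages are used as markers of the early myeloid path. Transcription factors of the C/EBP, PU.1, MYB, RUNX and GFI1 families are known regulators of these genes.

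Elane (ENSMUSG00000020125.7) lies at chr10:79886247-79888215 on the plus strand of GRCm38, which is the mm10 build, and Prtn3 (ENSMUSG00000057729.12) lies beside it at chr10:79874476-79883174 on the same strand. The gap between the pair is 3072 bases. Ctsg (ENSMUSG00000040314.2) lies at chr14:56099881-56102574 on the minus strand, and Mpo (ENSMUSG00000009350.13) at chr11:87793581-87804413 on the plus strand. Each of the 3 proteases has 5 exons and Mpo has 14 in GENCODE M21. The libraries were made with QuantSeq, which reads the 3′ ends of transcripts, so reads are expected mainly near those ends. The last exons lie at chr10:79887917-79888215 for Elane, chr10:79882818-79883174 for Prtn3, chr14:56099881-56100150 for Ctsg and chr11:87804325-87804413 for Mpo. Read positions were not examined, so the share of reads from these exons is not known. The antisense gene Gm11505 lies inside the span of Mpo and is not among the measured genes. The sources used here do not say whether the counting used strand.

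The 4 promoters are shown because the levels of the 4 genes ran in nearly one order over the libraries, as described below. They are RefSeq windows of GRCm38.p6, from 250 bases before to 50 bases after the annotated start, written 5′ to 3′ on the strand of the gene. The windows are chr10:79886062-79886361 (plus) for Elane, chr10:79879417-79879716 (plus) for Prtn3, chr14:56102525-56102824 (minus) for Ctsg and chr11:87793534-87793833 (plus) for Mpo. The RefSeq starts of Elane, Prtn3 and Mpo lie inside the GENCODE spans given above, so positions counted from the start depend on which start is taken. Capitals mark every match, on either strand, to 6 short motifs of the regulators above and of the TATA box.
Elane: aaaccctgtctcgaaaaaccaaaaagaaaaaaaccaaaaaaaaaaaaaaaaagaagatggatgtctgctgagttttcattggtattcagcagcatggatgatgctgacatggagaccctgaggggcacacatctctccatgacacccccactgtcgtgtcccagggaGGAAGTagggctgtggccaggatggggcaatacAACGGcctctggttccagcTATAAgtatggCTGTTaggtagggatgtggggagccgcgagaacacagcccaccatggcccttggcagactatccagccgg
Prtn3: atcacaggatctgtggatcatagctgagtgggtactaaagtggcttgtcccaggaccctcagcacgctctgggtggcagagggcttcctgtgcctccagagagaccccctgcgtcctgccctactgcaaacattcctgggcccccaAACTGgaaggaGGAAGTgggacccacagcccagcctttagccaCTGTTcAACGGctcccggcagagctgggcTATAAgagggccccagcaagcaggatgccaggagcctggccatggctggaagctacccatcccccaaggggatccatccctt
Ctsg: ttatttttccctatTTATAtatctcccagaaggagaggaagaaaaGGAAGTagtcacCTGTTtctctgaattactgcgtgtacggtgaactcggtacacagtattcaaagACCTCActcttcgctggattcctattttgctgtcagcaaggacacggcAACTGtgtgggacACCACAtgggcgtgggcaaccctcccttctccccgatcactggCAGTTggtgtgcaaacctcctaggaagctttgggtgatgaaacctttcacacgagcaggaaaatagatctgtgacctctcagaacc
Mpo: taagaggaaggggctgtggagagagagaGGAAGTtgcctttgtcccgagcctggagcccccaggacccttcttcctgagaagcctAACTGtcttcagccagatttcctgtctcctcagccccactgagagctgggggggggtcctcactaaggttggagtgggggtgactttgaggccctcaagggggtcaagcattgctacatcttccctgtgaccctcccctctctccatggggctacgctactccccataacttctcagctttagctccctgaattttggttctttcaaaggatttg

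The Ets letters GGAAGT, which PU.1 can bind, were found in all 4 windows, on the strand of the gene each time. Their first base lay at -83 in Elane, -93 in Prtn3, -205 in Ctsg and -222 in Mpo, where -1 is the last base before the start. Of the 32851 RefSeq mouse promoters of the same length, 23.8% hold these letters on either strand. The MYB letters AACNG were also found in all 4, and 80.3% of promoters hold them. Elane and Prtn3 share an arrangement on one strand: GGAAGT first, then AACGG, then TATAA. From the first base of GGAAGT to that of AACGG there were 33 bases in Elane and 38 in Prtn3, and from there to TATAA 19 and 23. The TATAA letters, held by 24.9% of promoters, began at -31 in Elane and -32 in Prtn3, whereas Ctsg had them at -236 on the opposite strand and Mpo had none. The RUNX letters TGNGGT (45.8% of promoters) occurred in Ctsg alone among the 4, at -140 and -79 on the opposite strand. The C/EBP letters TTGCNNAA (10.8%) and the GFI1 letters AATCAC (10.4%) matched none of the 4 windows. No 2 matches overlapped. The motifs were chosen with the promoters in view, and a match describes letters only, not a bound site.

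Levels are in log2 CPM, the log2 of read counts scaled to a common library total, as deposited. The authors' scaling gave all libraries one distribution of values, with a maximum of 13.37 in each. In bulk RNA of this kind, fewer cells expressing a gene and less RNA per cell cannot be told apart.

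Elane, the elastase, measured 7.28 and 9.53 log2 CPM in Vehicle (replicates 1 and 2), 8.49 and 10.92 in AG120, 8.59 and 8.79 in AZA, and 7.92 and 6.80 in AG120_AZA. Its highest library was AG120 replicate 2 and its lowest AG120_AZA replicate 2, and the Vehicle pair spanned the whole AZA group. The distance from lowest to highest library was 4.12 on the log2 scale, a 17.4-fold range. Among the 1426 genes with a mean of at least 7 log2 CPM, 5 had a wider range than Elane.

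Prtn3, the protease that is also the target antigen of autoantibodies in vasculitis, measured 7.99 and 9.66 log2 CPM in Vehicle, 7.68 and 9.81 in AG120, 8.69 and 8.96 in AZA, and 7.32 and 6.10 in AG120_AZA. Both AG120_AZA libraries were below the other 6. The range was 3.71 on the log2 scale (13.1-fold), and 13 of the 1426 genes had a wider one.

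Ctsg, the chymotrypsin-like member of the trio, measured 8.55 and 10.40 log2 CPM in Vehicle, 9.16 and 10.62 in AG120, 10.04 and 9.84 in AZA, and 8.80 and 7.56 in AG120_AZA. Here AG120_AZA replicate 1 lay above Vehicle replicate 1, so those groups overlapped. The range was 3.06 on the log2 scale (8.32-fold), with 25 of the 1426 genes wider.

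Mpo, the peroxidase, measured 12.38 and 13.37 log2 CPM in Vehicle, 12.76 and 13.37 in AG120, 12.92 and 13.20 in AZA, and 11.97 and 10.90 in AG120_AZA. Both AG120_AZA libraries were below the other 6. Mpo held the highest value of any gene in Vehicle replicate 2 and AG120 replicate 2, and in the other libraries it ranked between 2 and 64. Because those 2 values are the common maximum, any true level above it would be recorded as 13.37. The range of 2.47 on the log2 scale (5.55-fold) is therefore a lower limit within this scaling, and 46 of the 1426 genes had a wider recorded range.

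**Figure D1:**
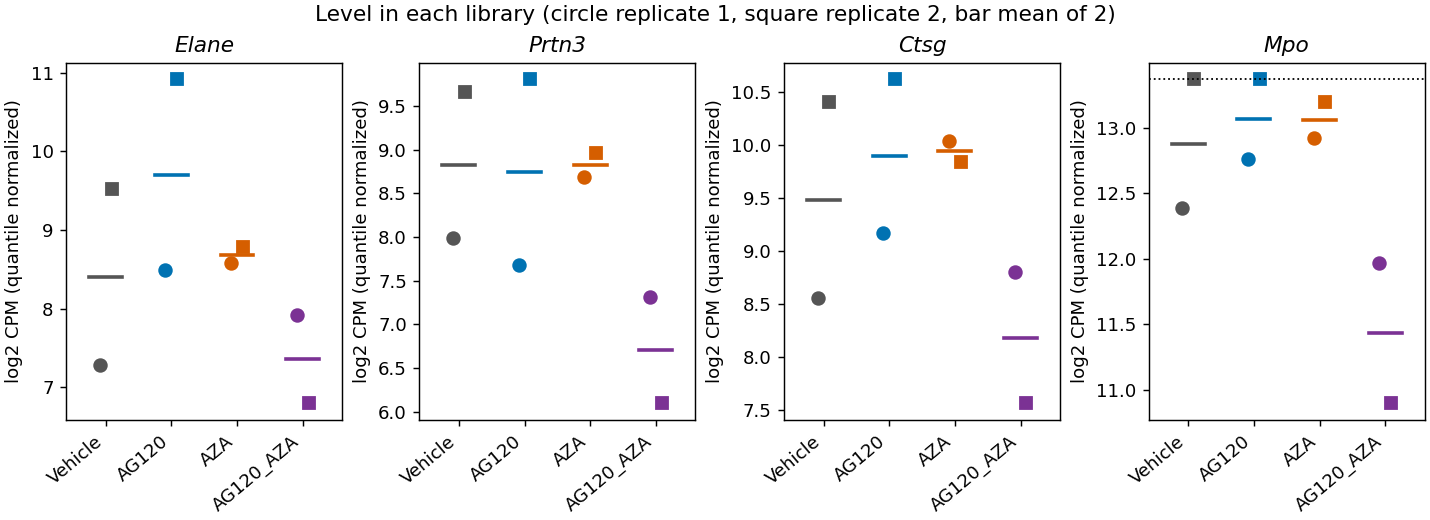
Log2 CPM (vertical axes) of Elane, Prtn3, Ctsg and Mpo in the 4 groups (horizontal axes), with a point for each of the 2 libraries of a group and a bar at their mean; the dotted line in the Mpo panel is the maximum shared by all libraries. Both AG120_AZA points lie below every other point for Prtn3 and Mpo, and 2 Mpo points sit on the maximum of 13.37.

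As group means, Elane was ordered AG120 (9.70 ± 1.71, SD, n = 2), AZA (8.69 ± 0.14), Vehicle (8.40 ± 1.59) and AG120_AZA (7.36 ± 0.80). Prtn3 was at 8.82 ± 1.19 in Vehicle, 8.82 ± 0.19 in AZA and 8.74 ± 1.50 in AG120, with AG120_AZA at 6.71 ± 0.86. Ctsg was at 9.94 ± 0.14 in AZA, 9.89 ± 1.03 in AG120, 9.48 ± 1.30 in Vehicle and 8.18 ± 0.88 in AG120_AZA. Mpo was at 13.07 ± 0.43 in AG120, 13.06 ± 0.20 in AZA, 12.88 ± 0.70 in Vehicle and 11.43 ± 0.76 in AG120_AZA. The combination had the lowest mean for all 4 genes. The other 3 groups overlapped each other for each of the 4 genes, so their order was not beyond the spread.

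The 2 libraries of a group often differed more than the groups did. In Vehicle, replicate 2 exceeded replicate 1 by 2.24 on the log2 scale for Elane, 1.84 for Ctsg, 1.68 for Prtn3 and 0.99 for Mpo. The median size of that difference over the 1426 genes of at least 7 log2 CPM was 0.219, and 96.7% to 99.6% of them differed by less than these genes. In AG120, replicate 2 was again the higher, by 2.42 for Elane, 2.13 for Prtn3, 1.45 for Ctsg and 0.61 for Mpo, against a median size of 0.167. In AG120_AZA the order was the opposite: replicate 2 minus replicate 1 was -1.13, -1.22, -1.24 and -1.07 for Elane, Prtn3, Ctsg and Mpo, against a median size of 0.221. Only the AZA pair lay close together, with sizes of 0.20 to 0.28 against a median of 0.252. The labels do not say whether libraries with the same replicate number share anything else.

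**Figure D2:**
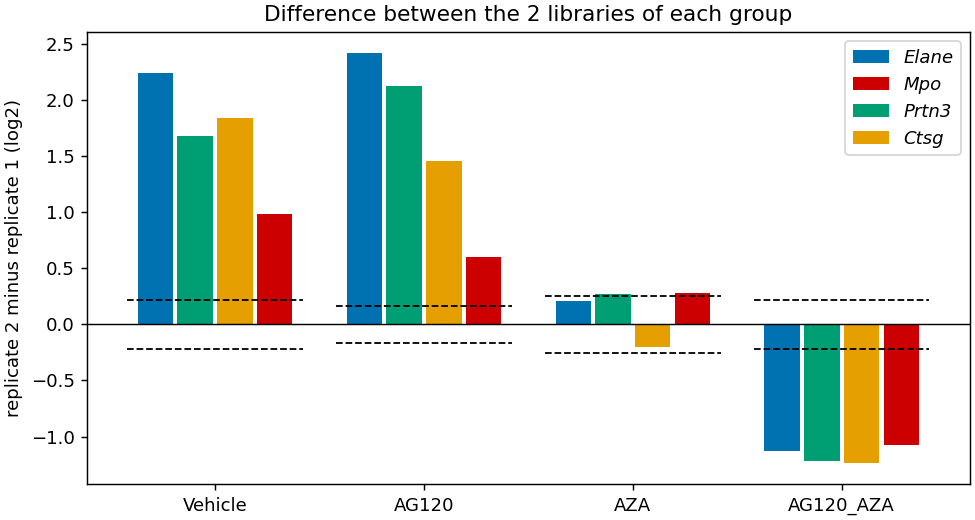
Replicate 2 minus replicate 1 in log2 CPM (vertical axis) for Elane, Prtn3, Ctsg and Mpo in each of the 4 groups; dashed lines show plus and minus the median size of that difference over the 1426 genes with a mean of at least 7 log2 CPM. The bars exceed the lines in Vehicle, AG120 and AG120_AZA, with replicate 2 lower in AG120_AZA and higher in the other 2.

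AG120 alone, and AZA alone, were each set against Vehicle first. Against Vehicle, the log2 difference with AG120 was 1.30 ± 0.76 (SE) for Elane, 0.41 ± 0.59 for Ctsg, 0.19 ± 0.39 for Mpo and -0.08 ± 0.66 for Prtn3. None of the 4 passed limma at an adjusted p below 0.05 (adjusted p = 0.510, 0.819, 0.882 and 0.973), and none reached an unadjusted p below 0.05; 71 genes, 0.578% of all tested, were called in that comparison. The 95% intervals ran from -0.38 to 2.98 for Elane, -0.89 to 1.71 for Ctsg, -0.66 to 1.04 for Mpo and -1.53 to 1.36 for Prtn3, so the interval of Prtn3 reaches past 1 log2 unit in either direction. With AZA the differences were 0.46 for Ctsg, 0.28 for Elane, 0.18 for Mpo and -0.001 for Prtn3, with 95% intervals of -0.84 to 1.76, -1.39 to 1.96, -0.67 to 1.03 and -1.45 to 1.45. Limma called 0 of the 4 (adjusted p = 1.000 for each) and 0 of all genes (0%) for AZA against Vehicle, with 432 genes at an unadjusted p below 0.05. The median of the 4 genes was 0.30 with AG120 and 0.23 with AZA, beside medians over all genes of 0.002 and -0.010. The sign for Elane with AG120 held in each of the 8 omissions of a library (0.09 to 2.51), while the other differences turned sign when 1 library was left out. Without Vehicle replicate 1, AG120 minus Vehicle was -0.30 for Mpo and -0.51 for Ctsg, and without AG120 replicate 2 it was -0.11 and -0.31. For Prtn3 it was 0.76 on leaving out Vehicle replicate 2 and 0.98 on leaving out AG120 replicate 1. Without Vehicle replicate 1, AZA minus Vehicle was -0.84 for Elane, -0.46 for Ctsg and -0.31 for Mpo, and for Prtn3 it was 0.84 on leaving out Vehicle replicate 2 and 0.13 on leaving out AZA replicate 1.

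Against Vehicle, the combination gave negative differences for all 4 genes, at -2.12 ± 0.66 for Prtn3, -1.44 ± 0.39 for Mpo, -1.30 ± 0.59 for Ctsg and -1.04 ± 0.76 for Elane. The groups did not overlap for Prtn3 and Mpo, and overlapped for Ctsg and Elane. Limma called none of the 4 (adjusted p = 0.102, 0.071, 0.234 and 0.463), while 371 genes, 3.02% of all, were called. At an unadjusted p below 0.05, Prtn3 and Mpo were lower, as were 10.5% of all genes, and non-overlapping lower levels occurred in 23.9% of all genes. The 95% intervals were -3.56 to -0.67 for Prtn3, -2.30 to -0.59 for Mpo, -2.60 to 0.00 for Ctsg and -2.72 to 0.63 for Elane. The median of the 4 was -1.37, beside 0.02 over all genes. Without AG120_AZA replicate 1, Mpo passed (log2 difference -1.98, adjusted p = 0.0205), whereas smaller differences came from leaving out Vehicle replicate 2 (Prtn3 -1.28, Mpo -0.95, Ctsg -0.38, Elane 0.08) or AG120_AZA replicate 2 (-1.51, -0.91, -0.68 and -0.48).

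Adding AZA to AG120 was read from AG120_AZA against AG120, and all 4 genes had both AG120_AZA libraries below both AG120 libraries. The difference was -2.34 ± 0.76 for Elane (5.08-fold lower mean), -2.04 ± 0.66 for Prtn3 (4.10-fold), -1.71 ± 0.59 for Ctsg (3.27-fold) and -1.63 ± 0.39 for Mpo (3.10-fold). All 4 had an unadjusted p below 0.05, as had 5.57% of all genes on the lower side, and 20.6% of all genes were lower without overlap. After adjustment limma called none of the 4 (adjusted p = 0.384 for Elane, Prtn3 and Mpo, and 0.416 for Ctsg). No gene of the whole table was called (0%), with 1237 at an unadjusted p below 0.05. The 4 genes had a median of -1.87, beside 0.02 over all genes. Mpo alone passed without AG120_AZA replicate 1 (-2.17, adjusted p = 0.0257), and no sign changed in the 8 omissions of a library. The sizes did change. Over these omissions Elane ranged from -3.56 to -1.13, Prtn3 from -3.10 to -0.97, Ctsg from -2.44 to -0.98 and Mpo from -2.17 to -1.10, and the smallest values came without AG120 replicate 2 (Mpo: without AG120_AZA replicate 2).

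Adding AG120 to AZA was read from AG120_AZA against AZA, the group whose 2 libraries lay closest for these 4 genes, though not over the 1426 genes of at least 7 log2 CPM. Both AG120_AZA libraries were below both AZA libraries for all 4 genes, as for 22.9% of all genes. The difference was -2.12 ± 0.66 for Prtn3, -1.76 ± 0.59 for Ctsg, -1.62 ± 0.39 for Mpo and -1.33 ± 0.76 for Elane. Prtn3, Ctsg and Mpo had an unadjusted p below 0.05, beside 9.73% of all genes on the lower side. None of the 4 passed (adjusted p = 0.118, 0.143, 0.056 and 0.368), and 278 genes, 2.26% of all, did. The 4 genes had a median of -1.69, beside 0.04 over all genes. Mpo lay at the edge of the threshold. It passed without Vehicle replicate 1 (adjusted p = 0.0408), Vehicle replicate 2 (0.0385) or AG120_AZA replicate 1 (0.0161), and with a pseudocount of 1 (0.0432). Without AG120_AZA replicate 2 the differences were -1.50 for Prtn3, -1.14 for Ctsg, -1.09 for Mpo and -0.76 for Elane, and no sign changed in the 8 omissions. The comparisons of AG120_AZA with Vehicle, AG120 and AZA share the same 2 AG120_AZA libraries.

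**Figure D3:**
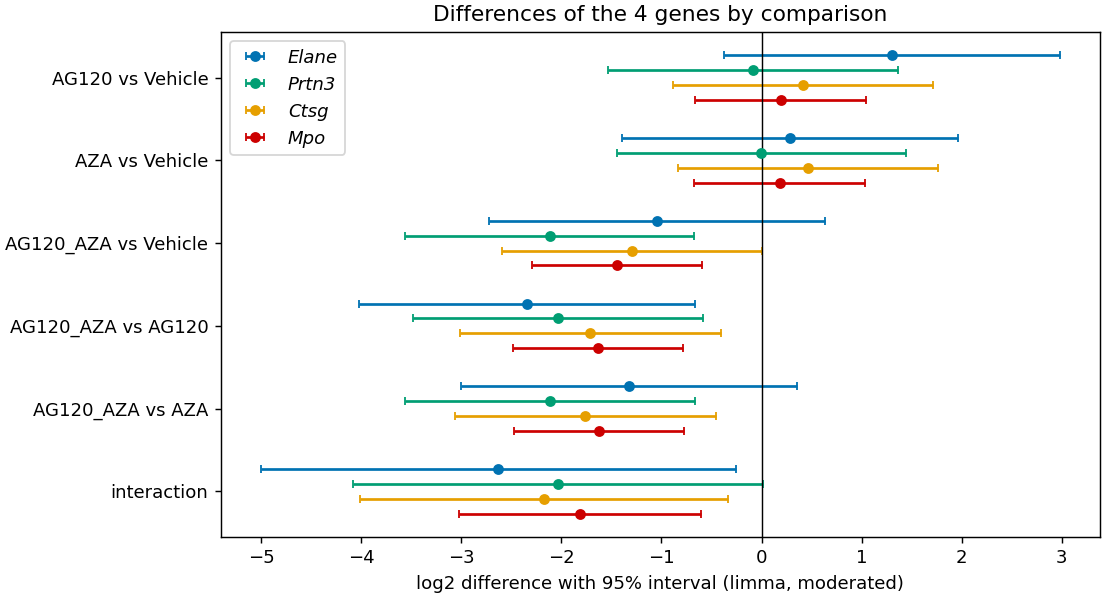
Log2 difference (horizontal axis) of Elane, Prtn3, Ctsg and Mpo in the comparisons tested, with bars for the limma 95% intervals. The 3 comparisons with AG120_AZA lie below 0 for all 4 genes, the single drugs scatter around 0, and none of the 4 passes after adjustment.

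The difference of the differences, AG120_AZA minus AZA less AG120 minus Vehicle, tests whether the combination departs from the sum of the single drugs. It was -2.63 ± 1.08 for Elane, -2.17 ± 0.84 for Ctsg, -2.03 ± 0.93 for Prtn3 and -1.81 ± 0.55 for Mpo. The 95% intervals excluded 0 for Elane (-5.00 to -0.26), Ctsg (-4.01 to -0.33) and Mpo (-3.02 to -0.61), and included it for Prtn3 (-4.08 to 0.01). Of all genes, 3.25% had an unadjusted p below 0.05 on the lower side. After adjustment limma called none of the 4 (adjusted p = 0.794 for each) and no gene at all (0%), with 765 genes at an unadjusted p below 0.05. The signs held in each of the 8 omissions of a library, with ranges of -3.84 to -1.42 for Elane, -3.09 to -1.25 for Ctsg, -3.10 to -0.97 for Prtn3 and -2.35 to -1.28 for Mpo. The smallest sizes came without AG120 replicate 2 for Elane and Prtn3, Vehicle replicate 1 for Ctsg and AG120_AZA replicate 2 for Mpo. The ceiling touches Mpo here, since 1 Vehicle and 1 AG120 library sit on it.

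Over both levels of the other drug, the AG120 effect was -1.10 ± 0.54 for Prtn3, -0.72 ± 0.37 for Mpo, -0.67 ± 0.51 for Ctsg and -0.01 ± 0.65 for Elane. Limma called none of the 4 (adjusted p = 0.249, 0.280, 0.463 and 0.993) and 719 genes overall (5.85%). Prtn3 passed without AG120 replicate 2 (-1.73, adjusted p = 0.0237). The AZA effect was -1.03 ± 0.65 for Elane, -1.02 ± 0.54 for Prtn3, -0.73 ± 0.37 for Mpo and -0.62 ± 0.51 for Ctsg, with adjusted p between 0.771 and 0.833. No gene was called for AZA (0%), with 761 at an unadjusted p below 0.05. None of the 4 had an unadjusted p below 0.05 in either effect.

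The 4 genes kept nearly one order over the libraries. After each profile was centred on its own mean, the mean of the 4 was lowest in AG120_AZA replicate 2 (-1.86), then AG120_AZA replicate 1 (-0.70), Vehicle replicate 1 (-0.65) and AG120 replicate 1 (-0.17). It was 0.36 and 0.50 in the AZA libraries, 1.04 in Vehicle replicate 2 and 1.48 in AG120 replicate 2. Likeness was measured as the root mean square difference between 2 centred profiles over the 8 libraries, where 0 is identity. The closest pair was Ctsg and Mpo (0.344), followed by Prtn3 and Ctsg (0.360), Prtn3 and Mpo (0.487), Elane and Ctsg (0.493), Elane and Prtn3 (0.586) and Elane and Mpo (0.703). The adjacent pair Elane and Prtn3 was therefore not the most alike. Elane departed most from Mpo, with a centred difference of 1.62 in AG120 replicate 2 and -1.03 in Vehicle replicate 1. The Mpo ceiling in AG120 replicate 2 bears on the first of these values.

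Among the 8084 genes with a mean of at least 3 log2 CPM, the profile nearest to the mean of the 4 belonged to Cacna1d (0.201), Cebpe (0.204) and Chdh (0.208), beside a median of 1.06 over those genes. Cebpe encodes C/EBP epsilon, a transcription factor of granulocyte maturation. Its levels were 4.24 and 6.18 log2 CPM in Vehicle, 5.04 and 6.52 in AG120, 5.82 and 5.48 in AZA, and 4.57 and 3.64 in AG120_AZA. Those levels repeated the low first and high second library of Vehicle and AG120 and the low combination. Cacna1d and Chdh held the same value in several libraries, so the 2 names may share reads. The next were Alas1 (0.266), which encodes the first enzyme of heme synthesis, Rgcc (0.270), Clec12a (0.282), a myeloid surface lectin, Slc28a2 (0.283), a nucleoside transporter, Man1c1 (0.294), Prss57 (0.332), another neutrophil serine protease, and Slc31a2 (0.333).

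Single members had their own nearest genes. Ctsg was closest to Cebpe (0.128), Cacna1d (0.177), Slc31a2 and Chdh (0.195 each) and Man1c1 (0.207). Prtn3 was closest to Slc28a2 (0.218), Rgcc (0.247), Alas1 (0.248), Mtus1 (0.258) and Clec12a (0.275). Elane was closest to Thy1 (0.266), which encodes a surface glycoprotein best known from T cells, then to Cebpe (0.444), Cldn15 (0.446), Cacna1d (0.454) and Gstm1 (0.462). The Thy1 levels were 2.32 and 4.79 log2 CPM in Vehicle, 4.16 and 6.83 in AG120, 3.89 and 3.98 in AZA, and 3.33 and 2.03 in AG120_AZA. Mpo was closest to Pi4kb (0.158), Dio2 (0.243), Tspan5 (0.244), Man1a (0.270) and Prss57 (0.270). These are descriptions over 8 libraries, and the likeness carries no test.

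**Figure D4:**
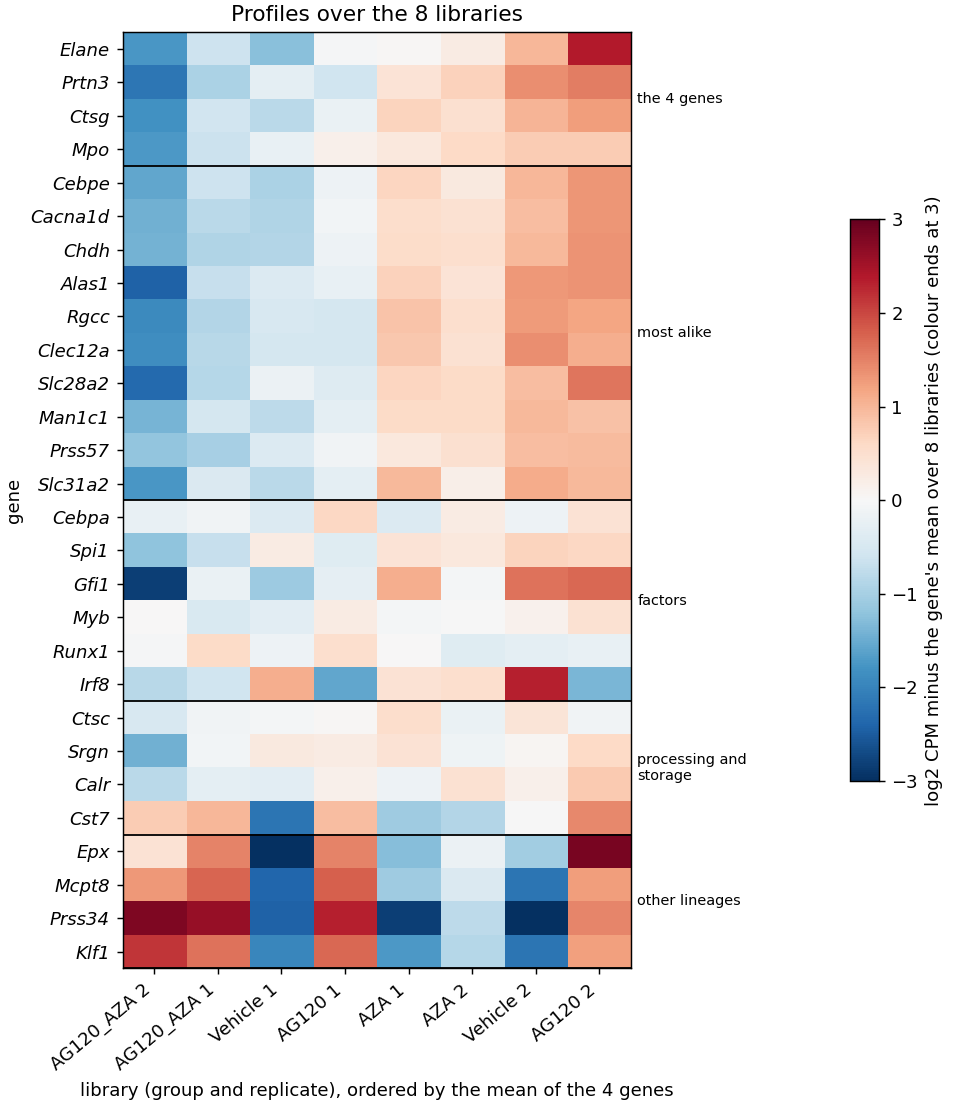
Heat map of centred log2 CPM for Elane, Prtn3, Ctsg, Mpo and the genes nearest to their mean profile (rows) in the 8 libraries (columns), ordered by the mean of the 4. Further rows show transcription factors, genes of protease processing and storage, and genes of other lineages. The columns run from AG120_AZA replicate 2 at -1.86 to AG120 replicate 2 at 1.48 for that mean.

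The list of transcription factors held regulators of granule genes, and also Gfi1b, the only member called higher in the combination. In AG120_AZA against Vehicle, limma called 1 of 13 higher and 2 lower, with 9 of 13 below 0 and a median of -0.56. Over all genes 1.63% were called higher, 1.38% lower, and 48.8% were below 0. Spi1, which encodes PU.1, fell by 1.41 ± 0.31 on the log2 scale (adjusted p = 0.0347). Its levels were 8.48 and 8.91 log2 CPM in Vehicle, against 7.53 and 7.03 in AG120_AZA. Irf8, a factor of monocyte and dendritic commitment, fell by 2.43 (adjusted p = 0.00729), and Gfi1b, a factor of erythroid and megakaryocyte cells, rose by 2.20 (adjusted p = 0.0148). The Spi1 call did not hold on leaving out Vehicle replicate 1 (0.0678), Vehicle replicate 2 (0.149), AZA replicate 1 (0.0551), AZA replicate 2 (0.0575) or AG120_AZA replicate 2 (0.267). Irf8 was lost without AG120_AZA replicate 2 (0.0789), and Gfi1b without Vehicle replicate 1 (0.0508) or AG120_AZA replicate 2 (0.108). Without AG120_AZA replicate 2, none of the 13 was called. Without the mean-variance trend Spi1 (0.183) and Irf8 (0.0805) were not called, and Spi1 was not (0.0583) among genes with a mean of at least 5. In the AG120 effect over both AZA levels, Gfi1b (2.18) and Irf8 (-2.18) were called in the full data and in all 8 omissions, and Irf8 was not called without the trend (0.0728).

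Other regulators did not pass in AG120_AZA against Vehicle. Cebpa, the factor that opens the granulocyte programme, differed by 0.11, Myb by -0.12, Runx1 by 0.49, Cebpe by -1.11 ± 0.61 (adjusted p = 0.327) and Gfi1, a repressor needed for neutrophil formation, by -1.78 ± 1.00 (adjusted p = 0.341). Cebpd differed by -1.39 (adjusted p = 0.105).

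Genes that process and store the proteases gave no call in the combination. Limma called 0 of 10 in AG120_AZA against Vehicle, with 6 below 0 and a median of -0.27, beside 3.02% called and 48.8% below 0 over all genes. The calls that came from leaving out a library went in opposite directions: lower without AG120_AZA replicate 1 and higher without Vehicle replicate 2. Ctsc, which encodes the dipeptidase that removes the propeptide, differed by -0.45 (adjusted p = 0.412), and Srgn, the proteoglycan core that binds the proteases, by -0.94 (adjusted p = 0.175). Calr and Pdia3, chaperones of the secretory route, differed by -0.47 and 0.59. Cst7, which encodes cystatin F, an inhibitor of that dipeptidase, rose by 2.07 in the AG120 effect (adjusted p = 0.00744), and passed in all 8 omissions but not without the mean-variance trend (0.0747). Its levels were 4.28 and 6.45 log2 CPM in Vehicle, 7.39 and 7.91 in AG120, 5.40 and 5.59 in AZA, and 7.46 and 7.23 in AG120_AZA, so both AG120 groups lay above the other 2.

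Inhibitors of the proteases showed no call in AG120_AZA against Vehicle, with 4 of 9 above 0, 5 below and a median of -0.05, beside the same 48.8% below 0 and 3.02% called over all genes. Without Vehicle replicate 1, 1 was called. Serpinb1a, a direct inhibitor of elastase, cathepsin G and proteinase 3, differed by -0.92 (adjusted p = 0.219). Slpi, a secreted inhibitor of elastase, differed by -2.09 (adjusted p = 0.107), and Serpinb6a, an inhibitor of cathepsin G, by 1.01 (adjusted p = 0.102).

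Of the other primary granule genes, 12 of 13 were measured and 11 were below 0 in AG120_AZA against Vehicle, with a median of -0.73 and 0 called, where 48.8% of all genes were below 0 and 1.38% were called lower. Without Vehicle replicate 1, 2 were called lower, and without AG120_AZA replicate 1, 1. Prss57 measured 6.43 and 7.78 log2 CPM in Vehicle, against 5.85 and 5.66 in AG120_AZA, a difference of -1.35 ± 0.42 (adjusted p = 0.100). Ms4a3, a membrane protein of granulocyte and monocyte progenitors, differed by -0.92 (adjusted p = 0.126). Lyz2, the lysozyme shared with monocytes, fell by 2.10 in the AG120 effect (adjusted p = 0.00665), and passed in all 8 omissions but not without the trend (0.0725).

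The chromosomal neighbours of the 4 genes varied in how near their profiles came. Of the measured neighbours within 100 kb, the 4 genes aside, 7 of 13 were nearer to Elane than the median of the genes searched (1.26), and 7 of 14 nearer to Prtn3 (1.23), largely the same genes. Around Ctsg the count was 0 of 2 (median 1.04) and around Mpo 3 of 9 (median 0.865). Plppr3, whose span overlaps that of Prtn3, had a likeness of 0.459 to it and a difference of -2.59 in AG120_AZA against Vehicle, and passed in no comparison (lowest adjusted p = 0.0513). Without strand its reads and those of Prtn3 cannot be told apart where the genes overlap. Ptbp1, a splicing factor 9.71 kb from Prtn3, had a likeness of 1.14 to it and a range of only 0.954 over the libraries. Prss57, at 83.5 kb, had 0.478.

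Relatives of Ctsg and Mpo in the same loci rose with AG120, where the 2 genes themselves did not pass. Mcpt8, a basophil protease 14.6 kb from Ctsg, measured 2.49 and 2.68 log2 CPM in Vehicle, 6.66 and 6.13 in AG120, 3.80 and 4.45 in AZA, and 6.61 and 6.17 in AG120_AZA. It rose by 3.81 in AG120 against Vehicle, where Ctsg differed by 0.41. Epx, the eosinophil peroxidase 59.6 kb from Mpo, measured 0.56 and 3.28 log2 CPM in Vehicle, 5.80 and 7.17 in AG120, 3.03 and 4.13 in AZA, and 5.80 and 4.76 in AG120_AZA. It rose by 4.56 in AG120 against Vehicle, where Mpo differed by 0.19. Of 18 listed related proteases and peroxidases 6 were measured, and 3 of them, Mcpt8, Epx and Prss34, rose in AG120 against Vehicle, where 0.358% of all genes were called higher. Mcpt8 and Prss34 passed in all 8 omissions, and without the trend none of the 3 passed (adjusted p of 0.0890 for Mcpt8, 0.123 for Prss34 and 0.210 for Epx). The Epx call did not hold on leaving out Vehicle replicate 1 (adjusted p of 0.110), AG120 replicate 1 (0.0908), AG120 replicate 2 (0.184), AZA replicate 1 (0.0565) or AZA replicate 2 (0.0609).

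Markers of other cells moved between the groups too, and their part in the results for the 4 genes was not tested. The summed level of the 4 genes was 6134 to 13486 CPM in Vehicle, 8097 to 14984 in AG120, 9591 to 11257 in AZA and 2275 to 4862 in AG120_AZA. Secondary and tertiary granule genes, which follow primary granules in neutrophil maturation, summed to 3079 to 13646, 4154 to 6983, 11532 to 15909 and 1162 to 2950 CPM in the same order, with 16 of 16 measured. In AG120_AZA against AZA all 16 were below 0, with a median of -2.98, and 6 were called lower. Over all genes 47.9% were below 0 and 1.2% were called lower. Ngp, which encodes neutrophilic granule protein, fell by 3.20 (adjusted p = 0.0109, and 0.130 without the trend). Without AZA replicate 1 or AG120_AZA replicate 2 none of the 16 was called, without AZA replicate 2 there were 2, and without either AG120 library there were 9.

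Monocyte markers (9 of 10 measured) summed to 426 to 1293 CPM in Vehicle, 268 to 477 in AG120, 578 to 780 in AZA and 263 to 313 in AG120_AZA. Basophil and mast cell markers (8 of 8) summed to 727 to 1385, 1750 to 2695, 1411 to 1480 and 2043 to 2796, and eosinophil markers (7 of 7) to 38.2 to 368, 1153 to 2367, 184 to 247 and 482 to 1173. Erythroid markers (12 of 12) summed to 1776 to 2656, 820 to 2221, 2092 to 4926 and 4401 to 4418, and megakaryocyte markers (7 of 7) to 2457 to 2613, 541 to 1405, 2241 to 2712 and 3604 to 3872. These sums hide members that moved apart. In AG120 against Vehicle, the globins Hba-a1 (-1.67), Hbb-bs (-1.84) and Hbb-bt (-1.53) were below 0 and not called. The early erythroid genes Klf1 (3.56), Rhd (4.68), Car1 (3.90) and Blvrb (3.16) were called higher there, beside 0.358% of all genes. Without Vehicle replicate 1 or AG120 replicate 1, 1 of the 12 erythroid markers was called higher in that comparison (with 2 lower in the second case), and without the trend these 4 were not called. In AG120_AZA against Vehicle, 3 of the 9 monocyte markers were called lower (Csf1r, F13a1 and Ms4a6c), beside 1.38% of all genes. Lgals3 was called higher (2.44, adjusted p = 0.0116), beside 1.63%. Without the trend Csf1r (adjusted p = 0.208), F13a1 (0.139), Ms4a6c (0.137) and Lgals3 (0.0968) were not called. Over the 8 omissions Csf1r ranged from -2.61 to -1.07, F13a1 from -3.85 to -1.76 and Ms4a6c from -2.11 to -1.16. All 3 lost their calls without Vehicle replicate 2 or AG120_AZA replicate 2, and Csf1r and F13a1 in other omissions too. Csf1r was also not called among genes with a mean of at least 5 (adjusted p = 0.0750). The Lgals3 call did not hold on leaving out Vehicle replicate 1 (0.0547) or AG120_AZA replicate 2 (0.0669), and without AG120_AZA replicate 2 none of the 9 was called. In AG120_AZA the basophil sums lay above those of Vehicle and AZA, and the erythroid and megakaryocyte sums above those of Vehicle and AG120, while the secondary granule and monocyte sums lay below those of Vehicle and AZA. For AG120_AZA against Vehicle, limma called the erythroid genes Klf1 (3.97), Rhd (5.52), Blvrb (3.76), Car1 (3.48), Gata1 (2.11) and Epor (1.90) higher. Higher too were the basophil genes Prss34 (5.52), Ms4a2 (4.15), Mcpt8 (3.80) and Il1rl1 (3.19), beside 1.63% of all genes. No other marker of the erythroid list or of the basophil and mast cell list was called, and Slc4a1 (-0.36) and Gata2 (-0.27) were below 0. The eosinophil gene Epx was also called higher in that comparison (3.36, adjusted p = 0.0447), and the granule gene Lcn2 lower (-2.32). Epx and Lcn2 were not called without the trend (adjusted p = 0.197 and 0.188). Without the trend Blvrb (adjusted p = 0.0616), Car1 (0.137), Prss34 (0.0552) and Il1rl1 (0.124) were not called. Gata1 and Epor were not followed singly under the other settings. Car1 and Il1rl1 did not keep their calls in every omission, where their differences ranged from 3.05 to 3.91 and from 2.19 to 4.19. Of the lymphoid markers 1 of 8 was measured (Cd79b) and of the stromal markers 1 of 7 (Pecam1).

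**Figure D5:**
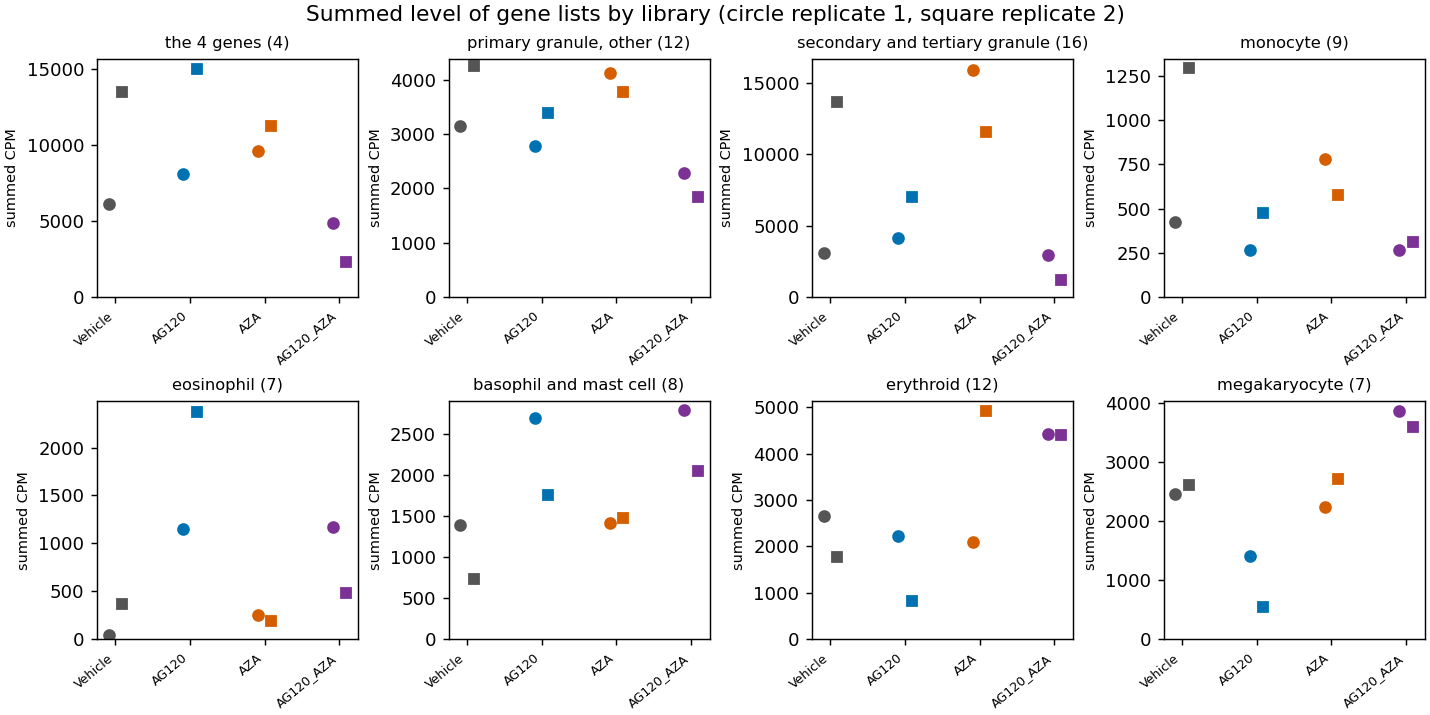
Summed CPM per library (vertical axes) for Elane, Prtn3, Ctsg and Mpo together and for 7 marker lists, in the 4 groups with 2 points each. The 4 genes sum to 2275 to 4862 CPM in AG120_AZA, below the 6134 to 13486 of Vehicle.

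The sort markers were checked in the same libraries. Kit, the receptor of the gate, measured 6.31 and 6.59 log2 CPM in Vehicle, 5.15 and 5.84 in AG120, 6.65 and 5.54 in AZA, and 4.51 and 4.26 in AG120_AZA. It fell by 2.06 in AG120_AZA against Vehicle (adjusted p = 0.0148), and was lost without Vehicle replicate 2 (0.0743), AG120_AZA replicate 2 (0.124) or the trend (0.122). Itgam, which encodes CD11b, was present at 2.10 to 4.53 log2 CPM over the 8 libraries, and differed by -0.15 in that comparison (adjusted p = 0.924). Cd34 and Cd93, progenitor markers that were not part of the gate, were called lower in the same comparison. Over the 8 omissions of a library their differences ranged from -3.66 to -3.06 and from -2.15 to -2.12. Cd93 was not called without the trend (adjusted p = 0.0552). Flt3, also on that list, is not described here. Kit was thus measured in every library, and whether these differences have a part in the levels of the 4 genes was not tested.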

How the data were processed

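QuantSeq 3′ libraries were made from sorted cells, per the labels' protocols. The submitters' processing notes name the mm10 build, HISAT2 2.1.0 and cutadapt 1.14, featureCounts (Subread 1.6.3), and edgeR 3.28.1 and limma 3.42.2 in R 3.6.2, with bcl2fastq 2.17.1.14. The values are log2 CPM as deposited by the authors, after a scaling that gave every library one distribution, with sums of 999525 to 999562 CPM. Library totals are lost, so depth is unknown. From the distinct values below it, a level of Elane rested on at least 651 reads, of Prtn3 on 385, of Ctsg on 1007 and of Mpo on 1792, in any library.

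The values were used without further scaling or filter. All 12294 genes in 8 libraries were fitted with limma 3.58.1 in R 4.3.3 (lmFit, then eBayes with its trend option). Pairwise contrasts (5 of them) and the interaction came from a fit of the 4 group means, with 4 residual and 7.06 prior degrees of freedom. The drug effects came from an additive fit with 5 and 6.85. Tests are two-sided, Benjamini-Hochberg adjustment runs over all genes, and a call is an adjusted p below 0.05. The fit was tested on simulated data. Alternatives were no trend, a minimum mean of 5, a pseudocount of 1, a replicate block, and each library left out. Named genes are the 4 genes, up to 4 per list by smallest p, a fixed set of regulators and sort markers, neighbours within 100 kb and the nearest profiles (5 per gene, 10 for the mean); a few further list members were named after their values were seen. The members and lists were chosen with earlier results of these data known. Bisulfite sequencing was not analysed here.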

Additional observations from a re-analysis of the deposited data

How the results depend on the processing

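None of the 4 genes was called in any of the 8 comparisons with the full data, without the mean-variance trend, with a minimum mean of 5, or with the replicate block. With a pseudocount of 1 the number of the 4 genes called was 1 in AG120_AZA against AZA. Over the 8 omissions of a library it ranged from 0 to 1 in AG120_AZA against Vehicle, AG120 and AZA and in the AG120 effect, and was 0 elsewhere. The signs of the 4 genes held under the settings that keep all libraries. Over the omissions, the AG120 minus Vehicle difference ranged from -0.30 to 0.68 for Mpo, -1.15 to 0.98 for Prtn3 and -0.51 to 1.33 for Ctsg. The AZA minus Vehicle difference ranged from -0.84 to 1.41 for Elane, -0.31 to 0.67 for Mpo, -0.84 to 0.84 for Prtn3 and -0.46 to 1.38 for Ctsg. The AG120_AZA minus Vehicle difference of Elane ranged from -2.17 to 0.08 (0.0781 without Vehicle replicate 2), and its AG120 effect from -0.76 to 0.47. Where an omission leaves 1 library in a group, that library is assumed to vary like the others.

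Counts over all genes moved more. Without the trend there were 0 calls for AG120 against Vehicle, 2 for AZA against Vehicle, 43 for AG120_AZA against Vehicle, 9 for AG120_AZA against AZA and 211 for the AG120 effect. With a minimum mean of 5 there were 23, 82, 67 and 369 for AG120 against Vehicle, AG120_AZA against Vehicle, AG120_AZA against AZA and the AG120 effect. With a pseudocount of 1 there were 427 for AG120_AZA against AZA. Over the omissions the counts ranged from 8 to 103 for AG120 against Vehicle, 0 to 1 for AZA against Vehicle, 37 to 727 for AG120_AZA against Vehicle, 0 to 213 for AG120_AZA against AG120, 14 to 594 for AG120_AZA against AZA, 0 to 29 for the interaction and 201 to 771 for the AG120 effect; the cause was not tested.

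The replicate block gave 60, 370, 213 and 725 calls for AG120 against Vehicle, AG120_AZA against Vehicle, AG120_AZA against AZA and the AG120 effect, and 0 of the 4 genes. Deviations of same-numbered libraries correlated across genes at -0.111 to 0.194 between groups, highest for Vehicle with AG120. A correlation over all genes cannot tell whether some of these libraries shared a batch. Depth is unknown, and the common maximum limits Mpo.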
